A study of Homo sapiens with 16 samples.

Results

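FTCD, ALPK3, CASS4, SMC1B, SHISA4, INPP5D and DHRS2 are 7 genes whose transcripts were less abundant in HEK293 cells overexpressing any of 3 RNF43 constructs than in cells overexpressing GFP. They were chosen by their expression values in these same libraries, which as groups were at least 2.09-fold below GFP for every construct. They are 7 of 16787 genes that passed the low-count filter. HEK293 is a line derived from human embryonic kidney. Cells overexpressed wild-type RNF43 (WT), or RNF43 carrying the frameshift R117fs or G659fs, and the control cells overexpressed GFP. All groups, controls included, were thus labelled as overexpressing a construct, and each group had 4 RNA sequencing libraries, 16 in all. The title of the series places the experiment in a method that predicts what gene variants do from expression. The sources used here did not say how the constructs were delivered, for how long they were expressed, or whether the libraries came from separate cultures. The p-values thus weigh each difference against the spread of these libraries, and that spread may be technical.

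RNF43, an E3 ubiquitin ligase of the cell membrane, marks Frizzled receptors for removal from the cell surface and thereby lowers the response of a cell to Wnt. The 7 genes have separate known roles. FTCD encodes formimidoyltransferase cyclodeaminase, a liver enzyme that passes the one-carbon unit from histidine breakdown to folate, and DHRS2 encodes a short-chain dehydrogenase/reductase. INPP5D encodes SHIP1, a phosphatase of blood cells that removes a phosphate from the lipid made by PI3-kinase. ALPK3 encodes a member of the alpha-kinase family found in heart and skeletal muscle, where its loss causes cardiomyopathy, and CASS4 encodes a scaffold of the CAS family at focal adhesions. SHISA4 encodes a transmembrane protein of the SHISA family, whose founding member in Xenopus holds Frizzled and FGF receptors in the endoplasmic reticulum. SMC1B encodes the meiotic form of the cohesin subunit SMC1. The genes lie on chromosomes 21, 14, 2, 15, 20, 1 and 22 in the order just given.

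RNF43 itself stood at 42100 to 59800 CPM (counts per 1000000 after TMM scaling) in the WT libraries, 30200 to 94600 in R117fs cells and 35200 to 47200 in G659fs, against 13.1 to 50.3 in GFP. Library totals lay between 32761360 and 46779570 estimated counts for WT, between 20364357 and 41161835 for R117fs, between 29886062 and 44738520 for G659fs, and between 25441077 and 30937321 for GFP. R117fs replicate 4 stood apart: its log2 deviations from the rest of its group had an SD of 0.5785, where no other library exceeded 0.4088, and they followed the GC content of genes (Spearman 0.799 across genes, which are not independent). Among the markers set for the line, VIM was found in every library at 600 to 913 CPM, INA at 23.3 to 33.1 and PAX2 at 5.36 to 7.76, while LHX1 ranged down to 0.104 CPM. In bulk libraries, fewer cells of a type and less RNA per cell cannot be told apart.

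The start regions of 3 of the genes are shown, that of FTCD because its result turns on where transcripts begin. Each is the RefSeq sequence of GRCh38.p14 running from 250 bases before to 50 bases after the annotated start, 5′ to 3′ on the strand of the gene, with the TATA letters TATAAA and the Sp1 letters GGGCGG in capitals on either strand. FTCD lies at chr21:46155530-46155829 on the minus strand, ALPK3 at chr15:84817106-84817405 on the plus strand and SMC1B at chr22:45413550-45413849 on the minus strand. The fourth sequence is the first 60 bases of ENST00000460011, an FTCD transcript that begins inside the gene, at chr21:46142682-46142741 on the minus strand of GRCh38.
FTCD promoter: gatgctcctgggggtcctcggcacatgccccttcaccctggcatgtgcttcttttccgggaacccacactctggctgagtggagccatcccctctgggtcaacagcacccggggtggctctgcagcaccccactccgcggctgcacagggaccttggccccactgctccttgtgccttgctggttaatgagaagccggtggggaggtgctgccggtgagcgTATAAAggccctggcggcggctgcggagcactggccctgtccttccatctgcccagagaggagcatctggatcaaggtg
ALPK3 promoter: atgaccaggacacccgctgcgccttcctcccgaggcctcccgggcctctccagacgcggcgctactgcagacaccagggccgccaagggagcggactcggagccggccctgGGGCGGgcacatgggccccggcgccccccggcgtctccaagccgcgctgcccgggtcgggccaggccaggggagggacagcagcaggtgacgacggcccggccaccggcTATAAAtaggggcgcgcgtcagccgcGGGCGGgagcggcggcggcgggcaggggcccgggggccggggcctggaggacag
SMC1B promoter: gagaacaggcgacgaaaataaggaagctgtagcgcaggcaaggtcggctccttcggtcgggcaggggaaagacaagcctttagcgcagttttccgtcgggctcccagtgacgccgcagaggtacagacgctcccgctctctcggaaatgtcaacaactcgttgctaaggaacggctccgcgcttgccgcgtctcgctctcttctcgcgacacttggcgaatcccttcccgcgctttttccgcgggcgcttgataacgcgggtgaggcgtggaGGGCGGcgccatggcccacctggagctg
ENST00000460011: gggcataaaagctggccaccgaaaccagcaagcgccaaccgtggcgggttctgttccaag

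All 7 genes were 2.09-fold to 9.79-fold lower with each construct than with GFP, with a median log2 fold change of -1.76 for WT, -2.13 for R117fs and -2.44 for G659fs, where the median of all 16787 genes lay between -0.01 and 0.00. These differences chose the genes, so they are given as a description with no test. By the edgeR quasi-likelihood test 11.6% of all genes were lower in WT, 8.57% in R117fs and 13.8% in G659fs at an adjusted p under 0.05, and 1.51%, 0.983% and 1.9% of all genes in those 3 comparisons were lower by at least 2-fold. Every library of the construct was below every GFP library for 16.7% of all genes in WT, 9.19% in R117fs and 18.8% in G659fs. In total 89 genes (0.53%) were lower by at least 2-fold in all 3 comparisons, which share the same 4 GFP libraries. Ranked by the smallest of the 3 differences, FTCD was at place 3 among the 89, SMC1B at 11, ALPK3 at 17, CASS4 at 21, DHRS2 at 36, INPP5D at 38 and SHISA4 at 76. At or above the lowest GFP level of the 7, which was that of SMC1B, 22 of the 89 genes were found. The 15 of these that are outside the set included MGAM, with log2 fold changes of -2.93, -1.55 and -3.08 for WT, R117fs and G659fs, and FAM214B, with -1.46, -1.01 and -1.38.

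**Figure D1:**
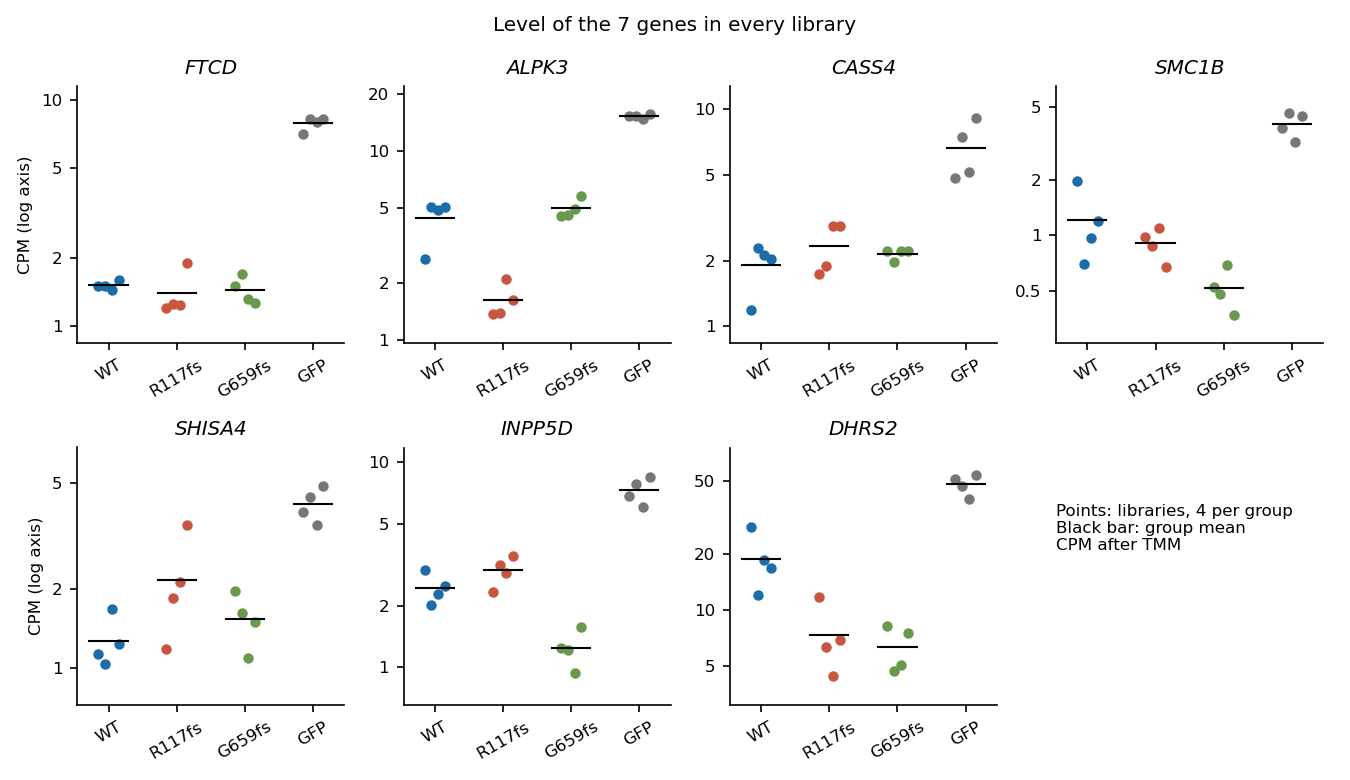
CPM after TMM of each gene in every library on a log axis, with 4 points per group and the group mean as a black bar. FTCD in the construct libraries lies at 1.20 to 1.90 CPM against 7.07 to 8.23 in GFP, and the only overlap with GFP among the 7 genes is SHISA4 in R117fs replicate 4.

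**Figure D2:**
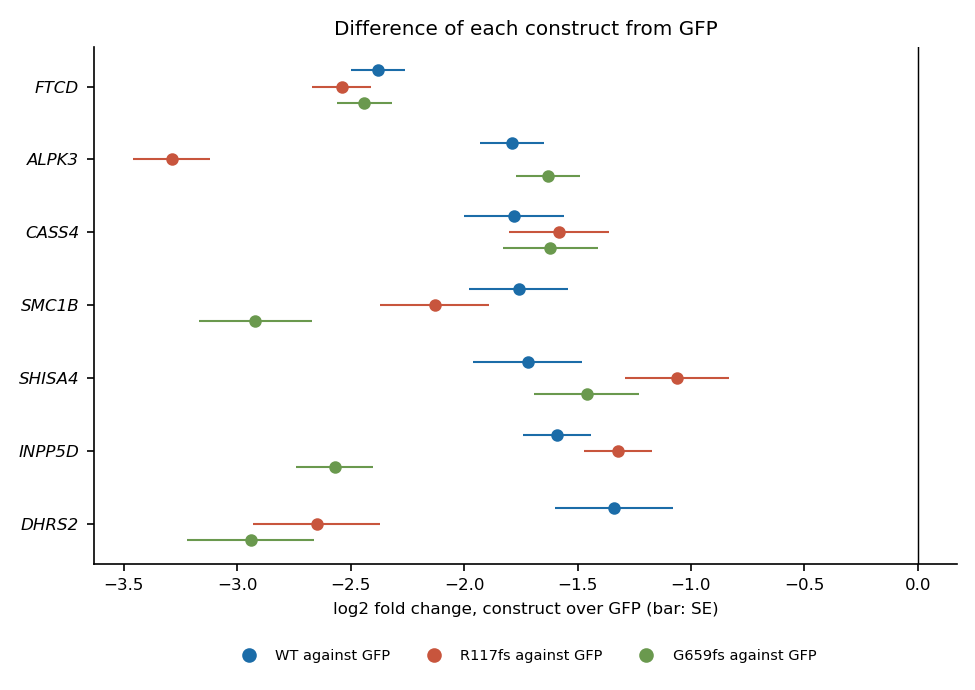
Log2 fold change of each construct over GFP for the 7 genes, with the standard error of the edgeR fit as a bar. FTCD has nearly the same value for all 3 constructs, -2.38 to -2.54, while ALPK3 is lowest for R117fs at -3.29 and INPP5D is lowest for G659fs at -2.57.

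Compared per length, in TPM (transcripts per 1000000), DHRS2 was the most abundant of the 7 in GFP cells at 41.2 ± 5.58 TPM (SD, n = 4), followed by FTCD at 18.4 ± 2.15 TPM and SHISA4 at 7.91 ± 1.32 TPM. CASS4 at 3.59 ± 1.17 TPM, INPP5D at 3.05 ± 0.55 TPM and ALPK3 at 2.95 ± 0.44 TPM did not differ beyond their spread. SMC1B was the least abundant at 1.52 ± 0.27 TPM. With the constructs every gene but DHRS2 averaged below 4 TPM. SMC1B in G659fs replicate 4 had the lowest count of any library, 11 reads (95% Poisson interval 5.49 to 19.7, counting error only), and the highest count was 1448 reads for DHRS2.

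FTCD (chr21:46136262-46155567, minus strand, GENCODE 29) had 1.51, 1.51, 1.44 and 1.59 CPM in the WT libraries, 1.20, 1.25, 1.24 and 1.90 in R117fs, and 1.50, 1.70, 1.31 and 1.26 in G659fs, against 7.07, 8.21, 7.99 and 8.23 in GFP. Every construct library was below every GFP library, and the constructs overlapped one another, with R117fs replicate 4 the highest of the 12. The log2 fold change was -2.38 ± 0.12 for WT, -2.54 ± 0.13 for R117fs and -2.44 ± 0.12 for G659fs (SE), and -2.67 for R117fs without replicate 4. No difference between constructs passed the edgeR test: R117fs against WT was -0.16 ± 0.16 (adjusted p = 0.556), G659fs against WT -0.06 ± 0.15 (adjusted p = 0.864) and G659fs against R117fs 0.10 ± 0.16 (adjusted p = 0.719).

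The difference in FTCD lay in transcripts that begin inside the gene. The transcript ENST00000460011, annotated as a processed transcript without a coding sequence, has 1260 bases in 5 exons, and its first exon of 633 bases (chr21:46142109-46142741) lies wholly in intron 10 of the 14-exon coding transcript ENST00000397746. The estimated counts put 55.2% ± 8.2 of FTCD reads on it in GFP cells (SD, n = 4), against 15.6% ± 13.5 in WT, 3.2% ± 4.2 in R117fs and 9.4% ± 11.7 in G659fs. In CPM it had 0.18, 0.49, 0.00 and 0.28 in WT, 0.11, 0.05, 0.00 and 0.00 in R117fs, and 0.37, 0.22, 0.00 and 0.00 in G659fs, against 3.11, 5.07, 4.86 and 4.46 in GFP. ENST00000494498, whose first exon also lies in intron 10 and which has no coding annotation either, averaged 0.12 ± 0.11 CPM in WT, 0.08 ± 0.11 in R117fs cells and 0.04 ± 0.06 in G659fs, against 1.19 ± 0.11 in GFP. The short coding transcript ENST00000446405, with 3 exons at the end of the gene, averaged 0.07 ± 0.06, 0.04 ± 0.04 and 0.06 ± 0.06 CPM with the 3 constructs in that order, against 0.84 ± 0.26 CPM in GFP.

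Transcripts that start at the annotated 5′ end of FTCD did not share this difference. The 5 transcripts that begin within 1000 bases of that end summed to 0.87 ± 0.12 CPM in WT, 0.88 ± 0.31 in R117fs cells and 1.01 ± 0.12 in G659fs, against 0.68 ± 0.24 in GFP (SD, n = 4), and the groups overlapped. The log2 ratios of these means were 0.35, 0.36 and 0.57. The 7 transcripts that begin later summed to 0.64 ± 0.11 CPM in WT, 0.52 ± 0.16 in R117fs cells and 0.43 ± 0.15 in G659fs, against 7.19 ± 0.60 in GFP, with log2 ratios of -3.50, -3.78 and -4.06. Taken by coding annotation, the protein-coding transcripts had log2 ratios of -1.16, -0.97 and -0.62. How reads are divided between overlapping transcripts is an estimate: 394 of the 1260 bases of ENST00000460011 are also exons of the coding transcript ENST00000397746. So are 279 of the 840 bases of ENST00000494498 and all 436 bases of ENST00000446405, so the assignment of reads to the last is the least certain. This split of transcripts by start was chosen after their values were seen.

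**Figure D3:**
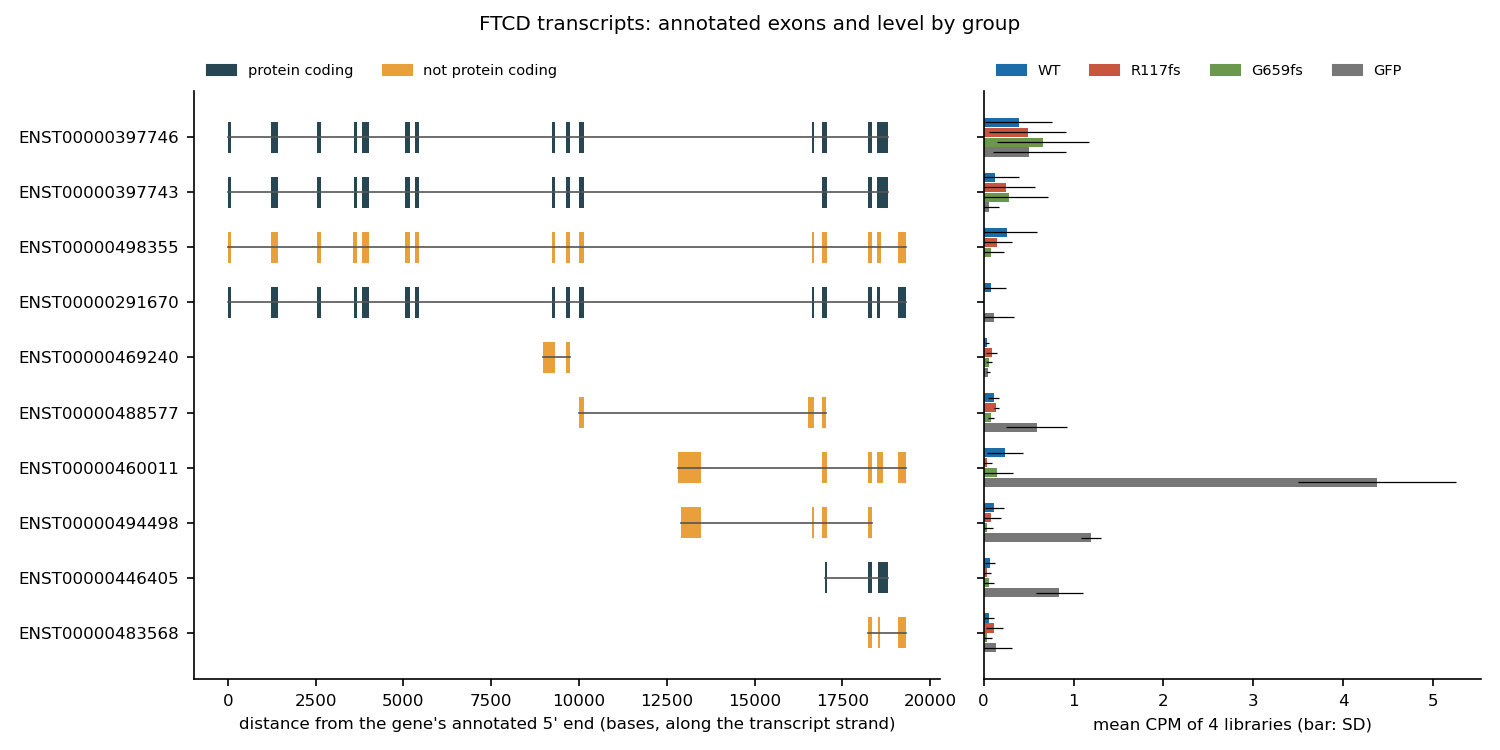
Left, exons of the FTCD transcripts above 0.03 CPM by distance in bases from the annotated 5′ end. Right, their mean CPM by group with the SD of 4 libraries as a bar. The GFP bar of ENST00000460011, at 4.38 CPM, is the longest, and the transcripts that start at 0 on the left have overlapping bars in all groups.

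DHRS2 (chr14:23630115-23645639, plus strand) had 28.24, 12.09, 18.66 and 16.79 CPM in WT, 11.72, 6.32, 4.40 and 6.88 in R117fs, and 8.19, 4.66, 5.04 and 7.49 in G659fs, against 50.89, 47.04, 39.70 and 53.93 in GFP. No construct library reached a GFP library, and every WT library was above every library of both frameshift groups, by a narrow gap between WT replicate 2 and R117fs replicate 1. The log2 fold change from GFP was -1.34 ± 0.26 for WT, -2.65 ± 0.28 for R117fs and -2.94 ± 0.28 for G659fs. DHRS2 fell further with both frameshifts than with WT RNF43: by the edgeR test R117fs against WT was -1.31 ± 0.28 (adjusted p = 0.0131) and G659fs against WT was -1.60 ± 0.28 (adjusted p = 0.0085). The first of these missed the threshold in a fit of those 8 libraries alone (-1.32, adjusted p = 0.072) and was -1.25 (adjusted p = 0.0416) without R117fs replicate 4. G659fs against R117fs was -0.29 ± 0.31 (edgeR adjusted p = 0.577).

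Most DHRS2 reads, 71.2% to 81.1% as group means, fell on the coding transcript ENST00000250383, which starts 6220 bases past the annotated 5′ end of the gene. It averaged 15.19 ± 4.70 CPM in WT, 5.46 ± 3.01 in R117fs cells and 4.93 ± 1.46 in G659fs, against 38.16 ± 5.01 in GFP. Its retained-intron companion ENST00000556729 averaged 1.71 ± 0.65, 0.88 ± 0.52 and 0.86 ± 0.21 CPM with the 3 constructs in that order, against 2.95 ± 0.40 CPM in GFP. Coding and other transcripts of DHRS2 were thus lower together.

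INPP5D (chr2:233059967-233207903, plus strand) had 2.98, 2.01, 2.27 and 2.50 CPM in WT, 2.33, 3.17, 2.90 and 3.49 in R117fs, and 1.25, 1.22, 0.94 and 1.57 in G659fs, against 6.88, 7.88, 6.05 and 8.45 in GFP. The G659fs libraries were below all others, and the WT and R117fs libraries overlapped. From GFP, INPP5D differed by -1.59 ± 0.15 for WT, -1.32 ± 0.15 for R117fs and -2.57 ± 0.17 for G659fs. By the edgeR test INPP5D was lower in G659fs than in WT (-0.98 ± 0.19, adjusted p = 0.00974) and than in R117fs (-1.25 ± 0.19, adjusted p = 0.00045), while R117fs against WT was 0.27 ± 0.17 (adjusted p = 0.328). With the effective length of its transcripts as an offset both G659fs differences shrank by over 1.5 times and missed the threshold, to -0.58 (adjusted p = 0.196) against WT and -0.74 (adjusted p = 0.0658) against R117fs. Without G659fs replicate 2 or 3 the difference from WT was -0.98 (adjusted p = 0.0526) or -0.86 (adjusted p = 0.0555).

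INPP5D reads were divided between 2 coding transcripts of unequal length. ENST00000445964, which spans nearly the whole gene, averaged 1.45 ± 0.37 CPM in WT, 1.66 ± 0.21 in R117fs cells and 0.45 ± 0.18 in G659fs, against 3.87 ± 0.48 in GFP. ENST00000415617, which starts 101757 bases past the annotated 5′ end, averaged 0.81 ± 0.32 CPM in WT, 1.05 ± 0.35 in R117fs cells and 0.57 ± 0.30 in G659fs, against 3.00 ± 0.79 in GFP. The long transcript held 38.7% ± 21.4 of the reads of INPP5D in G659fs, against 59.5% ± 11.6 in WT, 56.1% ± 5.2 in R117fs and 53.1% ± 4.5 in GFP. Of 16 markers of blood cells, 10 averaged under 1 CPM over all 16 libraries. The list summed to 24.4 to 31.2 CPM in WT, 26.9 to 37.1 in R117fs cells and 28.1 to 31.7 in G659fs, against 28.7 to 33.7 in GFP, so the groups overlapped.

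ALPK3 (chr15:84816680-84873482, plus strand) had 2.69, 5.06, 4.89 and 5.06 CPM in WT, 1.38, 1.39, 2.12 and 1.64 in R117fs, and 4.56, 4.61, 4.96 and 5.82 in G659fs, against 15.47, 15.35, 14.90 and 15.83 in GFP. The 4 GFP libraries were close together and above all others, R117fs was below all others, and WT and G659fs overlapped, with WT replicate 1 the lowest of its group. Relative to GFP the log2 fold change was -1.79 ± 0.14 for WT, -3.29 ± 0.17 for R117fs and -1.63 ± 0.14 for G659fs. ALPK3 was lower in R117fs than in WT by the edgeR test (-1.50 ± 0.19, adjusted p = 0.00021), a 2.82-fold difference. It was higher in G659fs than in R117fs (1.66 ± 0.19, edgeR adjusted p = 4e-05), while G659fs against WT was 0.17 ± 0.15 (adjusted p = 0.572). Both ALPK3 differences passed in all 24 alternative fits, with values of -1.72 to -1.41 and 1.58 to 1.97.

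Nearly all ALPK3 reads, 97.1% to 98.7% as group means, fell on the one coding transcript of the gene, ENST00000258888, so its difference was one of the coding RNA. The GENCODE start of that transcript is 676 bases from the RefSeq start around which the ALPK3 sequence above is drawn. Of 13 markers of striated muscle 10 averaged under 1 CPM over all 16 libraries and none was at 0 in every library. By the edgeR test 1 of the 7 that could be tested was lower in each comparison with GFP and none higher, with median log2 fold changes of -0.17 for WT, -0.24 for R117fs and -0.15 for G659fs. Over all genes 11.6%, 8.57% and 13.8% were lower in these comparisons and 9.85%, 7.04% and 11.6% higher, so a count of 1 was close to the share. The list summed to 45.2 to 48.7 CPM in WT, 44.0 to 48.3 in R117fs cells and 41.7 to 49.4 in G659fs, against 55.9 to 62.8 in GFP. The marker that passed was ACTN2, a sarcomeric actin-crosslinking protein, which fell with WT (-0.82 ± 0.12, edgeR adjusted p = 0.00012), R117fs (-0.50 ± 0.12, adjusted p = 0.00826) and G659fs (-0.76 ± 0.12, adjusted p = 0.00019), averaging 11.68, 14.74 and 12.23 CPM with the 3 constructs in that order, against 20.68 CPM in GFP. With effective length as an offset the R117fs difference of ACTN2 was -0.30 and missed the threshold (adjusted p = 0.241). The summed markers of muscle were lower in every construct library than in every GFP library, as was ALPK3. Between the 3 constructs their ranges overlapped. With 10 of 13 markers under 1 CPM, the sum rests on few genes. The part of these markers in the ALPK3 differences was not tested.

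CASS4 (chr20:56412112-56460387, plus strand) had 1.19, 2.30, 2.12 and 2.04 CPM in WT, 1.73, 1.89, 2.90 and 2.88 in R117fs, and 2.23, 1.97, 2.22 and 2.21 in G659fs, against 4.83, 7.44, 5.16 and 9.16 in GFP. The constructs overlapped one another and stayed below GFP, whose own libraries were spread more widely in CPM than those of any construct. The log2 fold change from GFP was -1.78 ± 0.22 for WT, -1.58 ± 0.22 for R117fs and -1.62 ± 0.21 for G659fs. No pair of constructs passed the edgeR test for CASS4: R117fs against WT was 0.20 ± 0.26 (adjusted p = 0.649), G659fs against WT 0.16 ± 0.25 (adjusted p = 0.758) and G659fs against R117fs -0.05 ± 0.25 (adjusted p = 0.928).

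The transcripts of CASS4 did not all stand in the same relation to GFP. The coding transcript ENST00000360314 averaged 0.37 ± 0.13 CPM in WT, 0.59 ± 0.28 in R117fs cells and 0.16 ± 0.11 in G659fs, against 2.76 ± 1.43 in GFP. The other coding transcript, ENST00000434344, averaged 1.25 ± 0.45, 1.34 ± 0.28 and 1.45 ± 0.18 CPM with the 3 constructs in that order, against 3.43 ± 0.87 CPM in GFP. The retained-intron transcript ENST00000497244 averaged 0.29 ± 0.28 CPM in WT, 0.42 ± 0.21 in R117fs cells and 0.56 ± 0.14 in G659fs, against 0.46 ± 0.22 in GFP, all within the spread of the libraries.

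SHISA4 (chr1:201888680-201892306, plus strand) had 1.13, 1.04, 1.68 and 1.23 CPM in WT, 1.18, 1.84, 2.12 and 3.49 in R117fs, and 1.95, 1.61, 1.09 and 1.50 in G659fs, against 3.91, 4.45, 3.47 and 4.88 in GFP. R117fs replicate 4, the library that stood apart, was just above GFP replicate 3, and no other construct library reached GFP. On the log2 scale SHISA4 differed from GFP by -1.72 ± 0.24 for WT, -1.06 ± 0.23 for R117fs and -1.46 ± 0.23 for G659fs, and -1.34 for R117fs without replicate 4. By the edgeR test R117fs against WT was 0.66 ± 0.27 (adjusted p = 0.133), 0.38 (adjusted p = 0.34) without R117fs replicate 4 and 0.93 (adjusted p = 0.0202) without R117fs replicate 1. G659fs against WT was 0.27 ± 0.27 (edgeR adjusted p = 0.615) and G659fs against R117fs -0.40 ± 0.26 (adjusted p = 0.337).

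About 69.0% to 74.1% of SHISA4 reads, as group means, fell on ENST00000464117, a processed transcript with no coding annotation that starts at the 5′ end of the gene. The coding transcript ENST00000362011 averaged 0.17 ± 0.04 CPM in WT, 0.24 ± 0.27 in R117fs cells and 0.26 ± 0.17 in G659fs, against 0.73 ± 0.24 in GFP. Its log2 ratios to GFP were -2.13, -1.63 and -1.52, the R117fs ratio resting on replicates 3 and 4, to which no reads were assigned, while replicates 1 and 2 had 0.48 and 0.47 CPM and the lowest GFP library 0.48 CPM.

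SMC1B (chr22:45344063-45413619, minus strand) had 1.97, 0.70, 0.97 and 1.20 CPM in WT, 0.98, 0.88, 1.09 and 0.67 in R117fs, and 0.52, 0.48, 0.69 and 0.37 in G659fs, against 3.84, 4.64, 3.20 and 4.47 in GFP. All construct libraries were below GFP, every G659fs library was below every WT library by a narrow margin, and R117fs overlapped both. SMC1B differed from GFP by -1.76 ± 0.22 for WT, -2.13 ± 0.24 for R117fs and -2.92 ± 0.25 for G659fs. SMC1B was lower in G659fs than in WT by the edgeR test (-1.16 ± 0.30, adjusted p = 0.0349), but this call was lost without any 1 of the 4 G659fs libraries or without WT replicate 1, 3 or 4 (-1.35 to -0.81, adjusted p = 0.0567 to 0.138). R117fs against WT was -0.38 ± 0.29 (edgeR adjusted p = 0.42) and G659fs against R117fs was -0.79 ± 0.34 (adjusted p = 0.124).

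SMC1B reads were split about evenly between its 2 coding transcripts, with SDs of 16.5 to 34.6 percentage points, so no difference between them could be read. Of 9 germ cell markers all averaged under 1 CPM over all 16 libraries, and 2 were at 0 in every library. The list summed to 0.994 to 1.36 CPM in WT, 0.77 to 1.33 in R117fs cells and 0.975 to 1.43 in G659fs, against 1.06 to 1.21 in GFP. For FTCD the like list is that of liver, of which 9 of 12 markers averaged under 1 CPM over all 16 libraries. It summed to 49.7 to 61.9 CPM in WT, 46.8 to 64.3 in R117fs cells and 44.6 to 50.4 in G659fs, against 50.3 to 56.7 in GFP. The summed liver and germ cell ranges overlapped between the constructs and GFP. Of 7 liver markers that could be tested, 1 was higher and 2 lower in WT, 1 and 0 in R117fs, and 0 and 3 in G659fs by the edgeR test, with medians of -0.47, -0.16 and -0.62. Over all genes 9.85%, 7.04% and 11.6% were higher in these comparisons, and 11.6%, 8.57% and 13.8% lower. ALB, which encodes albumin, fell with WT (-1.46 ± 0.25, edgeR adjusted p = 0.00057) and G659fs (-1.91 ± 0.27, adjusted p = 8e-05), averaging 0.37, 0.89 and 0.28 CPM with WT, R117fs and G659fs, against 1.03 CPM in GFP, and had -0.24 ± 0.22 in R117fs (adjusted p = 0.504). TF, which encodes transferrin, fell with WT (-0.60 ± 0.15, edgeR adjusted p = 0.00728) and G659fs (-0.46 ± 0.15, adjusted p = 0.0261), while HNF4A, a liver transcription factor, rose with WT (1.13 ± 0.23, adjusted p = 0.00236) and R117fs (0.99 ± 0.25, adjusted p = 0.0113). HPD fell with G659fs (-0.97 ± 0.27, edgeR adjusted p = 0.0149), and without G659fs replicate 2 the G659fs count of lower markers was 1. The part of these markers in the FTCD difference was not tested.

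Between the constructs the 7 genes thus fell into different orders. By the edgeR test 2 of the 7 were lower in R117fs than in WT (ALPK3 and DHRS2), where 8.11% of all genes passed in either direction 3.62% being lower and 4.5% higher. In G659fs against WT 3 of the 7 were lower (DHRS2, INPP5D and SMC1B), where 5.68% of all genes passed, 3.35% lower and 2.32% higher. In G659fs against R117fs 1 was higher (ALPK3) and 1 lower (INPP5D), where 14.4% of all genes passed, 6.35% higher and 8.02% lower. FTCD, CASS4 and SHISA4 passed in none of these 3 comparisons, which does not show that their levels were equal. The share of all genes whose libraries did not overlap between constructs was not counted, so such separation is given above only as description. Without R117fs replicate 4 the R117fs calls were kept: ALPK3 against WT at -1.52 (edgeR adjusted p = 0.000266), and G659fs against R117fs at 1.69 for ALPK3 (adjusted p = 3.73e-05) and -1.19 for INPP5D (adjusted p = 0.000533).

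**Figure D4:**
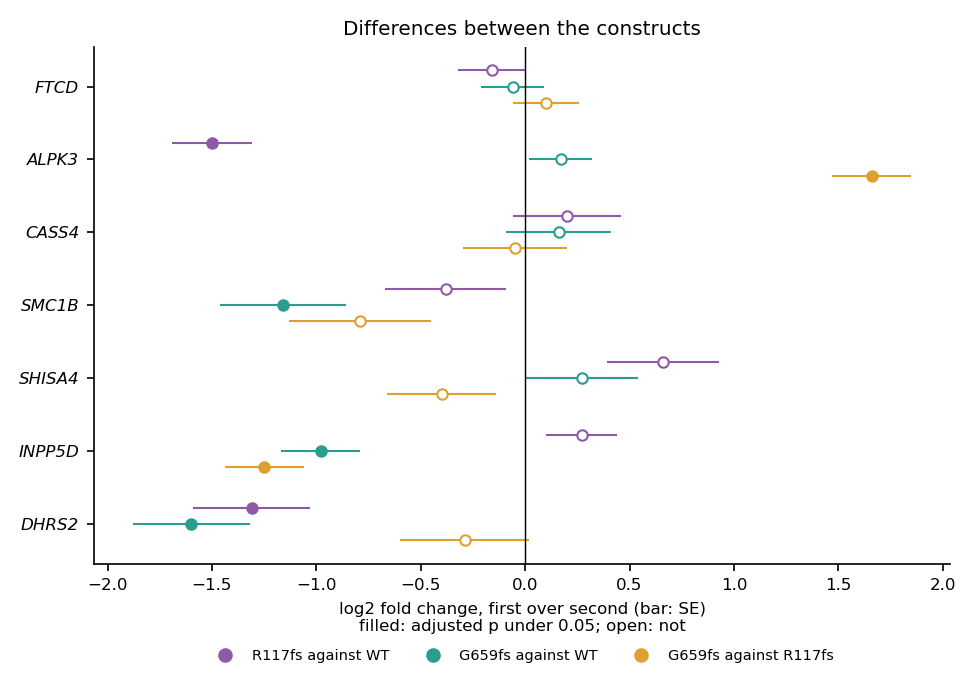
Log2 fold change between constructs for the 7 genes, first-named construct over the second, with the SE of the edgeR fit as a bar. Filled points passed at an adjusted p under 0.05: ALPK3, DHRS2, INPP5D and SMC1B each have at least 1, and FTCD, CASS4 and SHISA4 have only open points.

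The genes next to the 7 on the chromosome differed from GFP by at most 0.47 on the log2 scale. Of these 14 genes RIBC2 alone was called lower by the edgeR test with all 3 constructs. The nearest tested gene on either side was taken, 14 in all, of which 9 lay within 10000 bases and none overlapped. Their log2 fold changes from GFP ran from -0.42 to 0.47, none was lower by 2-fold, and 8 of 42 comparisons passed the edgeR test, where 21.5% of all genes passed in either direction for WT, 15.6% for R117fs and 25.4% for G659fs. COL6A2, a collagen gene 3412 bases from FTCD, was at 0.09 ± 0.11, 0.08 ± 0.11 and 0.12 ± 0.11 for WT, R117fs and G659fs. LMOD1, which encodes a leiomodin and lies 4145 bases past SHISA4, was higher in R117fs (0.47 ± 0.11, edgeR adjusted p = 0.00811).

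RIBC2 and SMC1B are transcribed away from each other from starts with 71 bases between them. RIBC2, whose product binds axonemal microtubules, begins opposite position 159 of the SMC1B sequence above, 92 bases upstream of the RefSeq start of SMC1B. It had 4.11, 3.64, 3.91 and 3.63 CPM in WT, 3.89, 3.52, 3.42 and 3.95 in R117fs, and 3.62, 3.49, 3.43 and 3.95 in G659fs, against 4.45, 5.67, 4.12 and 5.18 in GFP. All 12 construct libraries were below all 4 GFP libraries, as for 4.97% of all genes. RIBC2 fell with WT (-0.34 ± 0.11, edgeR adjusted p = 0.0309), R117fs (-0.39 ± 0.11, adjusted p = 0.0257) and G659fs (-0.42 ± 0.11, adjusted p = 0.00837). The WT and R117fs calls were each lost in 7 of 24 alternative fits (adjusted p up to 0.331 and 0.139), and the G659fs call in none. SMC1B was at -1.76 to -2.92, but it was chosen for its differences from GFP and RIBC2 was not. That SMC1B differed more thus follows largely from that choice.

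**Figure D5:**
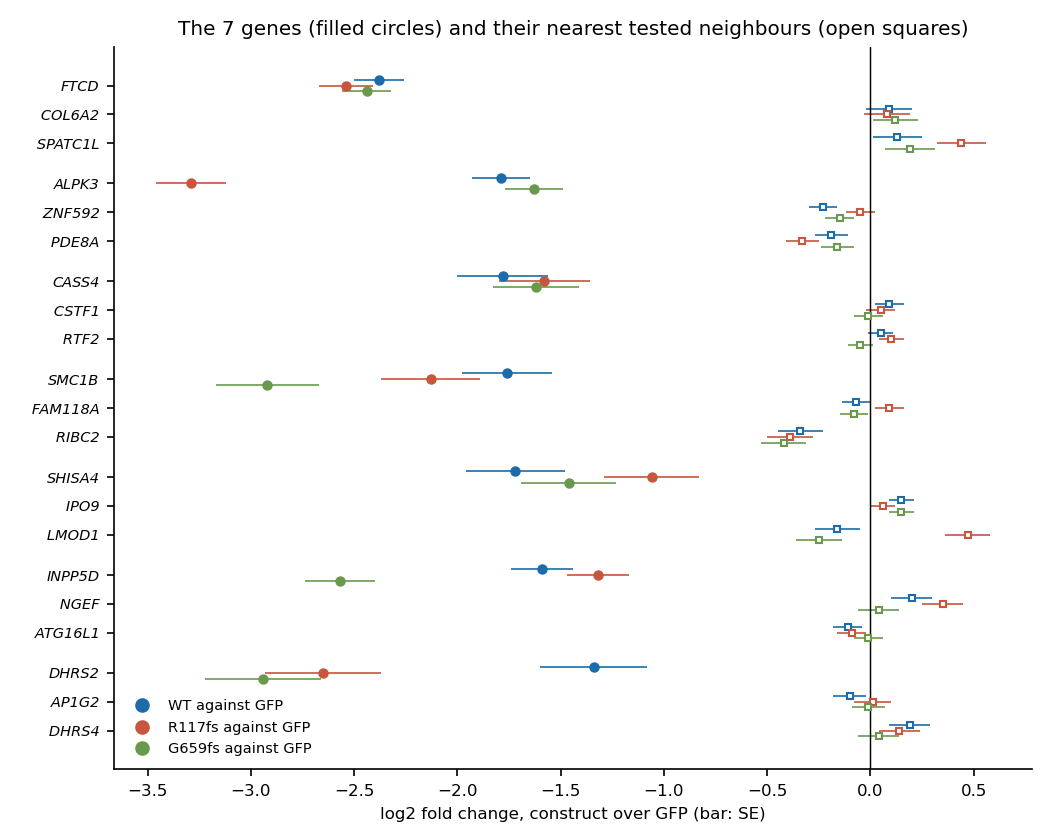
Log2 fold change of each construct over GFP for the 7 genes (filled circles) and the nearest tested gene on either side (open squares, listed under each), with SE bars. The neighbours lie between -0.42 and 0.47, and the 7 genes between -3.29 and -1.06.

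Of the 7 genes, 6 (all but CASS4) had a RefSeq start region to search, in both strands of 300 bases. The TATA letters TATAAA were in 3 of the 6 (FTCD, ALPK3 and DHRS2), against 11.5% of all 35116 start regions. The Sp1 letters GGGCGG were in 4 (ALPK3, SMC1B, SHISA4 and INPP5D), against 45.0%, and the E-box CANNTG was in all 6, against 68.7%. The TCF/LEF letters CTTTG, a core of the sites through which Wnt signalling acts, were in 1 (DHRS2), against 47.5%. None held the AP-1 letters TGANTCA (7.7% of all), the CRE letters TGACGTCA (1.8%) or the EGR1 letters GCGNGGGCG (9.4%), the last of which can overlap the Sp1 letters. The DHRS2 region lies 6220 bases from the start of the transcript that held most of its reads, and the FTCD region lies 12 bases from the start of transcripts that were not lower with the constructs.

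The genes with profiles closest to the mean of the 7 were found by the root mean square difference, over the 16 libraries, of log2 CPM after subtracting the GFP mean of each gene. DUSP13, a dual-specificity phosphatase gene, was closest at 0.30, followed by DNAH12, an axonemal dynein heavy chain, at 0.36 and CFAP43, a cilium and flagellum protein, at 0.38. LTA, which encodes lymphotoxin alpha, and KBTBD12 followed at 0.40, the pseudogene AL604028.2 at 0.41, KIAA1755 and FGF22 at 0.48, and CNKSR1 and the pseudogene CHMP4BP1 at 0.49. The 7 genes themselves were 0.40 (FTCD) to 0.70 (ALPK3) from their own mean, and the median of all tested genes was 1.75. The 7 were chosen for their differences from GFP and each is part of the mean. Their closeness to it follows largely from that choice. DUSP13 had log2 fold changes of -2.06 ± 0.27, -2.32 ± 0.30 and -2.33 ± 0.28 for WT, R117fs and G659fs, at a GFP mean of 0.98 CPM. Values of pseudogenes are uncertain where they share reads with a parent gene.

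Taken gene by gene, FTCD was closest to TCN2, which encodes a vitamin B12 carrier, and MYO18B, both at 0.41. INPP5D was closest to CFAP43 at 0.24 and IP6K3, an inositol hexakisphosphate kinase, at 0.33. IP6K3 had -1.56 ± 0.22, -1.29 ± 0.22 and -2.75 ± 0.26 for WT, R117fs and G659fs, with the lowest value for G659fs as in INPP5D. SHISA4 was closest to DNAI1, an axonemal dynein intermediate chain, at 0.28 and ARHGEF33 at 0.34. CASS4 was closest to CNKSR1 at 0.35 and FAM214B at 0.37, SMC1B to CFAP43 and MYO18B at 0.55, and ALPK3 to KBTBD12 at 0.56 and the pseudogene HADHAP1 at 0.59. KBTBD12 had -1.22 ± 0.14, -2.55 ± 0.17 and -1.93 ± 0.15, the lowest value being that of R117fs as in ALPK3. Its G659fs value was below its WT value, unlike in ALPK3. IP6K3 and KBTBD12 were picked for closeness over these same libraries, so a shared lowest construct follows largely from that choice. DHRS2 had no gene closer than KCNN4, a calcium-activated potassium channel, at 0.68 and LRRC70 at 0.71.

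Related genes, those of the same families and pathways, were counted as higher or lower than in GFP, with no set test. Over all genes, 9.85% were higher in WT, 7.04% in R117fs and 11.6% in G659fs. Lower were 11.6%, 8.57% and 13.8% in that order, and both sets of shares apply to each list that follows. Among 18 tested genes of histidine breakdown and folate one-carbon metabolism, the pathway of FTCD, 8 were higher and 2 lower in WT, 5 and 0 in R117fs, and 4 and 2 in G659fs, with median log2 fold changes of 0.27, 0.08 and 0.10. MTHFD1L, a mitochondrial enzyme that makes formate, rose with WT (0.44 ± 0.07, edgeR adjusted p = 0.00021), R117fs (0.31 ± 0.07, adjusted p = 0.00439) and G659fs (0.26 ± 0.07, adjusted p = 0.00854). SHMT2, the mitochondrial serine hydroxymethyltransferase, rose likewise (0.37 ± 0.07, 0.35 ± 0.07 and 0.26 ± 0.07, edgeR adjusted p = 0.00114, 0.0029 and 0.0105). Without 1 library, the R117fs count of higher genes ran from 2 (GFP replicate 2 left out) to 7 (R117fs replicate 4 left out).

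Of 21 tested DHRS and retinol dehydrogenase genes besides DHRS2, 5 were higher and 0 lower in WT, 5 and 0 in R117fs, and 7 and 2 in G659fs. DHRS7 rose with WT (0.58 ± 0.06, edgeR adjusted p = 9.1e-06), R117fs (0.40 ± 0.06, adjusted p = 0.00042) and G659fs (0.36 ± 0.06, adjusted p = 0.0004), and DHRS3, which reduces retinal, fell with G659fs (-0.49 ± 0.12, adjusted p = 0.0049). Without R117fs replicate 4 the counts of higher genes were 10, 7 and 11, and the lowest without 1 library were 3, 2 and 3. Of 5 alpha-kinase genes besides ALPK3, 3 were higher and 0 lower in WT, 1 and 1 in R117fs, and 3 and 0 in G659fs, and without GFP replicate 2 or 4 the WT count of higher genes was 1. ALPK2, another member of the family, rose with WT (0.79 ± 0.13, edgeR adjusted p = 0.00044), R117fs (0.69 ± 0.14, adjusted p = 0.00256) and G659fs (0.54 ± 0.13, adjusted p = 0.00668). Among 9 SHISA family genes besides SHISA4 none was lower, and 2 were higher in WT, 1 in R117fs and 3 in G659fs, SHISA3 at 0.52 ± 0.10 (edgeR adjusted p = 0.00171) in WT and 0.51 ± 0.10 (adjusted p = 0.00168) in G659fs. The count was 6 in G659fs without R117fs replicate 4, and in R117fs it was 0 without GFP replicate 1, 3 or 4, against 1 with all libraries.

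Of 22 phosphoinositide phosphatase and PI3-kinase genes besides INPP5D, 1 was higher and 6 lower in WT, 1 and 5 in R117fs, and 2 and 4 in G659fs, with a median of -0.05 in each. Over all genes 11.6%, 8.57% and 13.8% were lower in these comparisons. The lower count was 3 in WT without GFP replicate 2 or 4 or WT replicate 1, 3 or 4, and 3 in R117fs without GFP replicate 2 or 4 or R117fs replicate 1. The G659fs count of higher genes was 6 without R117fs replicate 4, and 0 without G659fs replicate 3 or 4 or GFP replicate 2 or 4. INPP5B, another inositol polyphosphate 5-phosphatase, fell with WT (-0.33 ± 0.06, edgeR adjusted p = 0.00159), R117fs (-0.37 ± 0.07, adjusted p = 0.00119) and G659fs (-0.53 ± 0.06, adjusted p = 1.9e-05). These differences were smaller than those of INPP5D, which was chosen for its differences from GFP. Synaptojanin 1 (SYNJ1) fell by 0.57 ± 0.09, 0.39 ± 0.09 and 0.45 ± 0.09 on the log2 scale (edgeR adjusted p = 0.00028, 0.00653 and 0.00126), and the R117fs value shrank to -0.19 (adjusted p = 0.257) with effective length as an offset.

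Of 11 tested genes of meiotic cohesin and synapsis besides SMC1B, none was higher. Lower were 1 in WT, 1 in R117fs and 4 in G659fs. A count of 1 was close to the share over all genes, and 4 was above it. The median log2 fold changes were -0.31, -0.19 and -0.22 for WT, R117fs and G659fs. MSH4, a meiotic mismatch-repair homologue, fell with G659fs (-1.11 ± 0.26, edgeR adjusted p = 0.00518) and WT (-0.88 ± 0.25, adjusted p = 0.0193), and had -0.77 ± 0.26 in R117fs (adjusted p = 0.0553). The WT call of MSH4 was lost without GFP replicate 4, WT replicate 2 or WT replicate 4 (adjusted p up to 0.0786), and without GFP replicate 3 the R117fs count was 0. Of 11 mitotic cohesin genes none was higher, and 1 was lower in WT, 3 in R117fs and 2 in G659fs, WAPL, which releases cohesin from DNA, in each (-0.30 ± 0.09, -0.36 ± 0.09 and -0.30 ± 0.09, edgeR adjusted p = 0.024, 0.0123 and 0.0214). Leaving out GFP replicate 2 (WT), GFP replicate 4 (R117fs) or G659fs replicate 2 (G659fs) left 0 lower in that comparison. Of 15 CAS and focal adhesion genes besides CASS4, 1 was lower in each comparison, and 1, 0 and 1 were higher. PTK2B, the focal adhesion kinase relative Pyk2, fell with G659fs (-0.71 ± 0.10, edgeR adjusted p = 7e-05), a call lost with effective length as an offset (-0.49, adjusted p = 0.126). In a fit of the R117fs and GFP libraries alone, the R117fs calls of MTHFD1L, SHMT2, SYNJ1, WAPL, ACTN2 and LMOD1 missed the threshold (edgeR adjusted p = 0.0677 to 0.121).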

How the data were processed

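The members and the lists of related genes and markers were chosen with earlier results of these data known. The submitters' processing notes name kallisto 0.45.1 and GRCh38. The deposited files give an estimated count, which is not whole, and, per the file headers, a TPM value per transcript. Annotation release, strand setting, read length and RNA selection are not given in the sources used here. Of 178136 transcripts 162453 (91.2%) matched GENCODE 29 by identifier. Estimated counts were summed per gene and rounded, and 16787 genes passed filterByExpr. TPM were summed per gene.

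Differences were tested with edgeR 4.0.16 (TMM, robust quasi-likelihood fit of all 16 libraries, glmQLFTest), adjusted by the Benjamini-Hochberg method over all 16787 genes, and called at an adjusted p under 0.05. The newer form of the fit needed dispersions, so they were estimated first. Standard errors rest on the spread shared by all groups. The biological coefficient of variation common to all genes was 0.103, and library totals of 20364357 to 46779570 limit precision. The code was tested on simulated counts.

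Besides the 7 members and RNF43, the text names the 10 genes closest to their mean profile and the closest 2 to each member (log2 CPM, prior count 2), the neighbouring genes, and up to 4 genes of each list with the smallest p among those called. MGAM and FAM214B were named after their values were seen as the ends of the 15 genes outside the set. Alternatives covered normalization, DESeq2 1.42.0, the filter, a replicate block, effective length, GC content, fewer libraries and transcript classes. A genome-wide search for other internal starts was not run.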

Additional observations from a re-analysis of the deposited data

Results flagged for a closer look

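In 3 of the 28 groups of 4 libraries tested (7 genes in 4 groups), 1 library lay far from the other 3 by Dixon's criterion, which flags about 1 in 20 groups by chance. FTCD had 1.90 CPM in R117fs replicate 4, above the other R117fs libraries at 1.20 to 1.25 CPM; this is the library that stood apart as a whole. ALPK3 had 2.69 CPM in WT replicate 1, below the other WT libraries at 4.89 to 5.06 CPM. CASS4 had 1.97 CPM in G659fs replicate 2, below the other G659fs libraries at 2.21 to 2.23 CPM, a group whose whole range was small.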

How the results depend on the processing

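The differences from GFP were negative for all 7 genes in all 24 alternative fits (16 leaving out 1 library, 8 others), 504 values from -3.41 to -0.80, of which 501 were at or below -1. In transcript classes chosen after seeing the data, FTCD reversed with transcripts starting near the 5′ end alone (0.35 for WT, 0.36 for R117fs, 0.57 for G659fs). Between constructs, a fit of 8 libraries alone ended the DHRS2 call for R117fs against WT (-1.32, adjusted p = 0.072), leaving 1 gene called (ALPK3). Effective length as an offset ended the calls of SMC1B (-1.15, adjusted p = 0.0614) and INPP5D (-0.58) for G659fs against WT, leaving 1 (DHRS2), and of INPP5D (-0.74) for G659fs against R117fs, leaving 1 (ALPK3). Leaving out 1 library gave, for G659fs against WT, 1 to 3 genes called, SMC1B at -1.39 to -0.81 and INPP5D at -1.10 to -0.86, and for R117fs against WT, SHISA4 at 0.38 to 0.93. The cause was not tested.

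Same-numbered libraries of different groups correlated at -0.062 to 0.16 and not every library was closest to its own number, so the numbers were not taken as pairs. The replicate block kept all calls among the 7 genes (SMC1B in G659fs against WT -1.14, edgeR adjusted p = 0.0388) and called 1343 genes for G659fs against WT, where 953 were called without it.

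Counts over all genes moved by more than 1.5 times. Leaving out 1 library gave 2222 to 6133 for WT against GFP (3603 in the reported fit), 1455 to 3701 for R117fs against GFP (2620), 3067 to 6723 for G659fs against GFP (4258), 626 to 2607 for R117fs against WT (1362), 100 to 3530 for G659fs against WT (953) and 1320 to 4012 for G659fs against R117fs (2412). The other fits gave, in that order, 2952 to 6946, 588 to 5192, 3500 to 7308, 154 to 3740, 439 to 4660 and 796 to 5545. At 11 to 1448 reads per library, small differences between constructs were not detectable for the rarer genes.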
